A study of Mus musculus with 2 samples.

Results

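Semaphorins, plexins and neuropilins are a set of guidance ligands and their receptors. They were picked by gene symbol, as every row named Sema with a class number, Plxn, Nrp1 or Nrp2. The rule uses no measured value, but it was set with earlier results of these data known. This gave 31 of 22054 genes, with 20 semaphorins, 9 plexins and 2 neuropilins on 47 transcript rows. Levels were measured by RNA-seq in the molar mesenchyme of the lower jaw of mouse embryos at embryonic day 14.5, cut from frozen sections by laser. The control group was Osr2+/- and the mutant group was Osr2-/-, both on a mixed background, so the control also carries 1 mutant Osr2 allele. That is the genotype in the sample labels; the series title and the name of the deposited control file call the control wild type, and the sample label was followed. The Osr2 protein is a transcription factor with zinc fingers, made in dental mesenchyme. Each group was 1 library made from tissue pooled over 3 pairs of samples. With 1 library per genotype no spread between embryos can be estimated, so every difference is one between these 2 libraries, and no test of genotype was made. The control library held about 5.38 M mapped reads and the mutant about 34.3 M, estimated from coverage, so control values carry the larger counting error. The deposited file names give each library a sequencing lane of its own, so a lane effect cannot be told apart from genotype.

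Osr2 itself was at 38.7 RPKM (reads per transcript kilobase, normalised to sequencing depth) in the control library and 9.16 RPKM in the mutant library. It was thus 4.23-fold lower in the library labelled mutant, with a counting interval of 3.69 to 4.84. Which part of the gene the allele removes is not stated in the labels, so remaining reads can come from exons it keeps. All 9 dental mesenchyme markers, among them Msx1, Pax9 and Barx1, were at 1 RPKM or more in at least 1 library. Their summed level was 389 RPKM in the control library and 306 RPKM in the mutant library. Markers of other cell types were summed too, and which cells their RNA came from was not tested. Markers of epithelium summed to 44.5 RPKM in the control library and 61.2 RPKM in the mutant library, of osteogenic cells to 16.8 and 49.5 RPKM, and of endothelium to 44.7 and 35.6 RPKM. Markers of macrophages summed to 18.3 and 14.9 RPKM, of muscle to 1.43 and 2.38 RPKM, and of Schwann cells and other crest-derived glia to 1.85 and 1.88 RPKM. The Y-linked gene Ddx3y was at 3.28 RPKM in the control library and listed at 0 in the mutant library, and Xist was at 5.21 and 30.0 RPKM, so the sex of the pooled embryos cannot be told apart from genotype. In pooled tissue, fewer cells of a type and less RNA per cell cannot be told apart either.

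Semaphorins carry a shared sema domain that binds plexins. Class 3 members are secreted, classes 4, 5 and 6 span the membrane and class 7 is held by a lipid anchor. Most class 3 ligands need a neuropilin as the binding subunit beside a plexin that signals, whereas membrane semaphorins bind plexins directly. Inside the cell, plexins act on small GTPases and the cytoskeleton. In the developing tooth, Sema3a made by the mesenchyme is known as a repellent that keeps nerve fibres out of the germ until the proper stage.

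The 2 neuropilin genes differed in opposite directions, and on the scale of log2(RPKM + 1) Nrp2 differed most of the 22 family genes that reached 1 RPKM in at least 1 library. Nrp2, a receptor subunit for Sema3f and for VEGF-C, was at 5.08 RPKM in the control library (95% Poisson interval of its approximate reads 4.32 to 5.95) and 14.2 RPKM in the mutant library (13.6 to 14.7). The intervals lay far apart, and the level in the mutant library was 2.79-fold higher (2.37 to 3.29). Nrp1, the receptor subunit for Sema3a and for VEGF-A, was at 5.55 RPKM (4.76 to 6.43) in the control library and 3.15 RPKM (2.91 to 3.40) in the mutant library. It was 1.76-fold lower in the mutant library (1.48 to 2.08). In the control the 2 receptors were thus at nearly the same level, with an Nrp2 to Nrp1 ratio of 0.916 (0.734 to 1.14). In the mutant library the ratio was 4.5 (4.12 to 4.91), which is 4.91 times as high. A ratio within a library does not depend on how the 2 libraries were scaled to each other. In mm9, Nrp2 spans chromosome 1, positions 62749891 to 62865266, and Nrp1 chromosome 8, positions 130882973 to 131029375. Counted from the highest log2 ratio, Nrp2 stood at place 52 of 9779 genes tested, and Nrp1 stood at place 254 from the lowest.

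**Figure D1:**
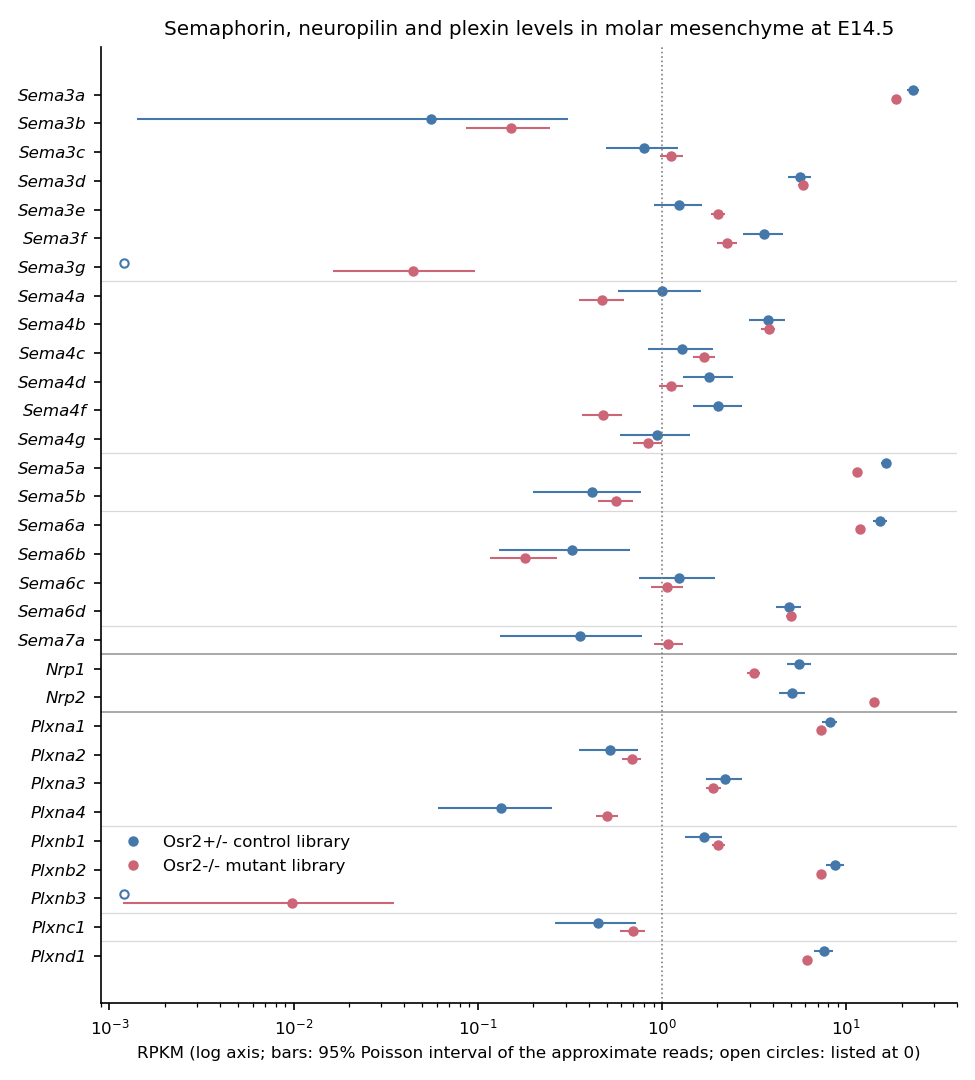
RPKM of all 31 family genes in the control library (blue) and mutant (red) library, on a log axis, ordered by role, with bars for the 95% Poisson interval of the approximate reads; open circles mark genes listed at 0 and the dotted line is 1 RPKM. Nrp2 lies at 5.08 RPKM in the control library and 14.2 RPKM in the mutant library, while Nrp1 lies at 5.55 and 3.15 RPKM.

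Nrp2 is deposited as 6 RefSeq rows, which differ in coding sequence at 3 places. They are shown because they tell the receptor's forms apart. Most of the extracellular part is common to all rows. The transcripts then either go on to the exon that codes for the end of form a or stop earlier in the exon that codes for the end of form b, and each end holds its own membrane span and cytoplasmic tail. A 15-base extension, 5 codons long, can precede both ends, and a 51-base exon of 17 codons belongs to form a. The sequences below are from GENCODE M21 on GRCm38, plus strand, while the expression files use mm9. Capitals mark the extension and the 51-base exon, and the 2 tails are given by their last 90 coding bases before the stop codon.
Nrp2 exon with the 15-base extension, chr1:62786281-62786316: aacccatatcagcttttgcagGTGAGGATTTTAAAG
Nrp2 51-base exon of form a, chr1:62812534-62812584: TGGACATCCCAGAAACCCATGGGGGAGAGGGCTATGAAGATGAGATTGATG
Nrp2 end of form a, chr1:62815545-62815634: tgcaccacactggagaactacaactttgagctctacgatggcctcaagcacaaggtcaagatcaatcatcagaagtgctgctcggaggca
Nrp2 end of form b, chr1:62795897-62795986: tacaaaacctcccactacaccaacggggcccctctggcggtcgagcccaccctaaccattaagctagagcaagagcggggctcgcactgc

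Both ends of Nrp2 were higher in the mutant library, and their balance was nearly the same in both libraries. Form a, over its 4 rows, was at 2.53 RPKM in the control library and 6.76 RPKM in the mutant library. Form b, over its 2 rows, was at 2.55 and 7.40 RPKM. Form a thus made up 49.8% of Nrp2 in the control library and 47.7% in the mutant library, and the folds of the forms were 2.67 and 2.90. The higher Nrp2 level was therefore seen in both forms of the receptor and not in 1 row.

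The smaller inserts were listed differently. In the control library, Nrp2 was assigned almost wholly to 2 rows, form a with the 51-base exon at 2.53 RPKM and form b without the extension at 2.54 RPKM. In the mutant these same rows stood at 5.73 and 6.38 RPKM, and 2 further rows appeared, form a without either insert at 1.02 RPKM and form b with the 15-base extension at 1.03 RPKM. Rows with the extension made up 0.265% of Nrp2 in the control library and 7.24% in the mutant library, and the 51-base exon was in 100% and 84.8% of form a. Coverage summed over the rows of Nrp2 was only 1.21 reads per base in the control library against 21.5 in the mutant library. A short insert is therefore covered by few control reads, and the share of rows in the control library is an estimate without a usable error. With the highest row alone in place of the sum, Nrp2 had a log2 ratio of 1.06, compared with 1.32 for the sum.

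**Figure D2:**
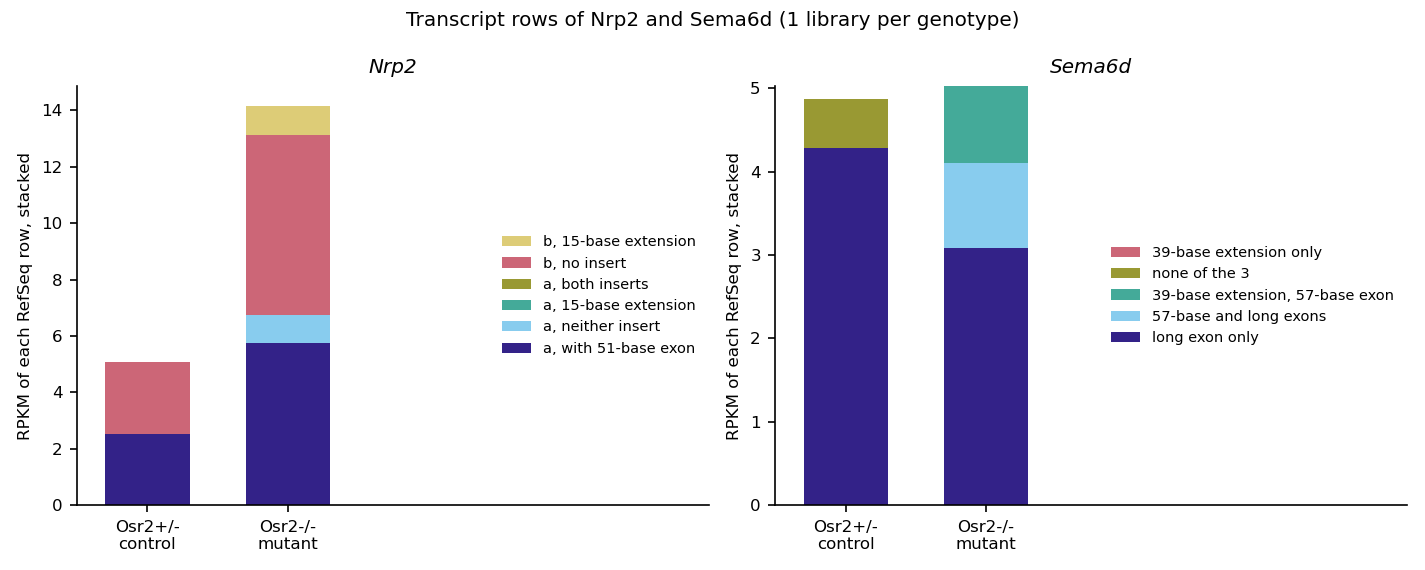
RPKM of each RefSeq row of Nrp2 (left) and Sema6d (right), stacked, in the control library and the mutant library; colours name the coding parts a row holds, and the long exon of Sema6d is the one of 168 bases. The total of Nrp2 goes from 5.08 to 14.2 RPKM with forms a and b near equal in both, while Sema6d stays at 4.87 and 5.03 RPKM with other rows listed.

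The stretches of 250 bases before the start sites of the 2 neuropilin genes are printed because the genes differ in opposite directions. They come from RefSeq on GRCm38.p6, plus strand, and capitals mark each GC box (GGGCGG, on either strand), the motif of Sp-family factors.
Nrp2 promoter, chr1:62703067-62703316: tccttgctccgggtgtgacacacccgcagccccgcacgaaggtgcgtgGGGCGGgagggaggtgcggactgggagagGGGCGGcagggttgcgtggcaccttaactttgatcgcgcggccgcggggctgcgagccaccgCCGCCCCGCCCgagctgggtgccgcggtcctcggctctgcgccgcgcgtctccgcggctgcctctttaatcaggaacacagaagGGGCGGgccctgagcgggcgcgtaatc
Nrp1 promoter, chr8:128358823-128359072: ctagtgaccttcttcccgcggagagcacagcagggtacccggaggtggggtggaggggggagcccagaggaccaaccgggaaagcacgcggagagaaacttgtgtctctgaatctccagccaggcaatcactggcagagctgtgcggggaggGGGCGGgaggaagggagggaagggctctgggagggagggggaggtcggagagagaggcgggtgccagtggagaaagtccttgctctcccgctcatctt

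The Nrp2 stretch held 5 GC boxes, some of them overlapping, and 32 CpG dinucleotides, and the Nrp1 stretch 1 GC box and 11 CpG. Across all 32851 promoters of the table, 32.7% held a GC box and the median was 6 CpG. Promoters were found for 26 of the 31 family genes, and 21 of these 26 genes had a GC box in at least 1 promoter, as did 73.0% of their 37 promoters. A TATA box (TATAAA, either strand) was in none of these 37 against 12.4% of all. The letters TGTGGT, a core of Runx sites, and CAGGTG, an E-box of Snail and Twist factors, were each in 13.5% of family promoters, against 14.0% and 17.2% of all, and in neither neuropilin stretch. These are matches of letters in a fixed window. The family promoters had a median of 13 CpG and 64% GC, against 6 CpG and 52.4% GC for all promoters. The motif shares were not adjusted for this difference in base composition.

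More of the family genes that reached 1 RPKM had an interval below 1 than above 1, while calls by size were even in the 2 directions. To pass, a gene had to differ at least 1.5-fold in RPKM + 1. Of 22 genes tested, 2 were higher by this rule, Nrp2 and Sema7a, against 2.55% of all 9779 genes tested. On the lower side there were also 2, Nrp1 and Sema4f, against 3.57% of all. The other 18 lay within 1.5-fold, and the median log2 ratio of the 22 genes was -0.14, against -0.05 for all genes tested. Over all 31 members, without the limit of 1 RPKM, the median was 0.012. A counting interval of the fold below 1 was found for 10 members, or 45.5%, against 15.7% of all genes tested. An interval above 1 was found for 3 members (13.6%, against 7.77% of all). Family genes carry more reads than most, with a median of 80.8 control reads against 57, which narrows their intervals. Among genes with at least 50 control reads, the interval lay below 1 for 7 of 14 members against 20.3% of all such genes, and above 1 for 1 member against 7.93%. This floor does not match the read numbers of members to those of other genes, and the part of read number was not tested. Family transcripts are also long, with a median longest row of 6217 bases against 2868. The median log2 ratio was -0.04 over the 1759 genes tested with a row of at least 5000 bases, and the part of length in the family values was not tested.

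**Figure D3:**
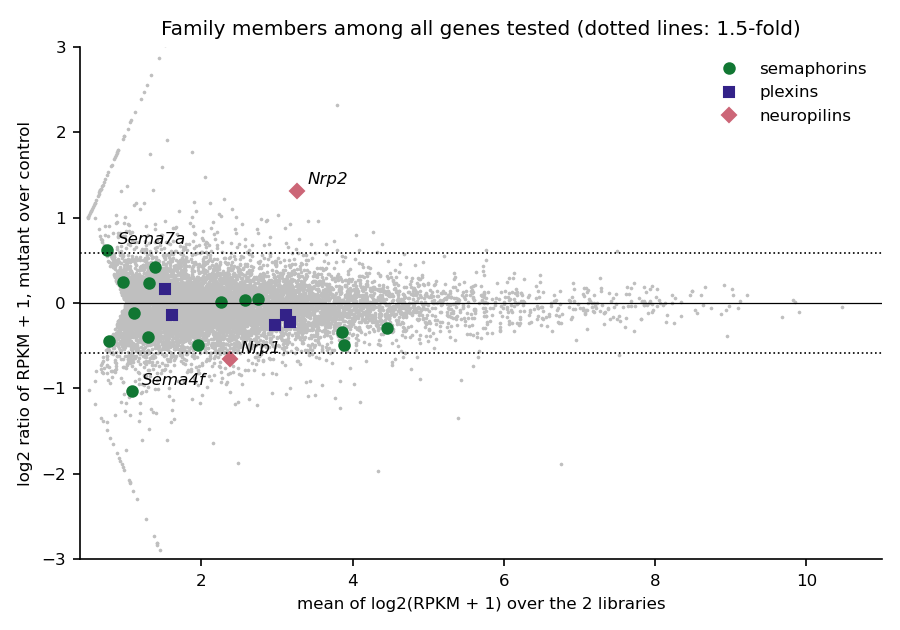
Log2 ratio of RPKM + 1, mutant over control, against the mean log2 level of each gene, with all genes tested in grey and the 22 family genes tested in colour; dotted lines mark 1.5-fold, and 16 genes lie outside the plotted range. Nrp2 and Sema7a lie above the upper line, Nrp1 and Sema4f below the lower one, and most other members lie between 0 and the lower line.

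Among the secreted class 3 ligands, Sema3a led in both libraries and the members differed in both directions. Sema3a was at 23.1 RPKM (21.5 to 24.9) in the control library and 18.7 RPKM (18.2 to 19.4) in the mutant library, the highest level of the family in each library. The interval of its fold lay below 1, at 1.23-fold lower (1.14 to 1.34). Sema3f, a ligand of Nrp2, was at 3.58 RPKM (2.76 to 4.57) in the control library and 2.26 RPKM (1.99 to 2.55) in the mutant library, 1.59-fold lower (1.19 to 2.09). Its direction was thus opposite to that of its receptor gene Nrp2. Sema3e, which binds plexin D1 without a neuropilin, was at 1.24 and 2.02 RPKM, 1.62-fold higher (1.2 to 2.24). Sema3d stood at 5.61 and 5.82 RPKM (fold 1.04, interval 0.892 to 1.21) and Sema3c at 0.798 and 1.13 RPKM (fold 1.41, interval 0.897 to 2.33), and both intervals include 1. The summed level of class 3 was 34.4 RPKM in the control library and 30.2 RPKM in the mutant library.

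Several class 3 genes share a chromosome. Sema3a, Sema3c, Sema3d and Sema3e are on chromosome 5 within 4.85 Mb in mm9, and their folds ran from 0.810 for Sema3a to 1.62 for Sema3e, so these neighbours did not share a direction. Sema3b and Sema3f are 72.3 kb apart on chromosome 9. Sema3b was at only 0.0556 RPKM in the control library, on about 1 read, and 0.151 RPKM in the mutant library. Sema3g, on chromosome 14, was listed at 0 in the control library and at 0.0444 RPKM in the mutant library.

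The class 4 ligands, which span the membrane once and bind mainly B-type plexins, held the gene with the largest lower fold. Sema4f was at 2.02 RPKM (1.47 to 2.71) in the control library and 0.476 RPKM (0.366 to 0.607) in the mutant library. The intervals did not meet, and the level was 4.24-fold lower in the mutant library (2.82 to 6.32), on about 44 and 64 reads. Its log2 ratio of RPKM + 1 was -1.03, at place 73 from the lowest of the 9779 genes. In mm9 the gene spans chromosome 6, positions 82861879 to 82889744, and its longer row of 4067 bases held 100% of its level in the control library and 90.8% in the mutant library. Sema4d, the ligand of plexin B1, was at 1.81 and 1.12 RPKM, 1.61-fold lower (1.12 to 2.26). Sema4a was at 1.01 and 0.474 RPKM, 2.12-fold lower (1.13 to 3.77), but on only 16 control reads. Its level was assigned to different ones of its 4 rows in the 2 libraries.

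Other class 4 members were nearer to equal. Sema4b was at 3.75 and 3.79 RPKM (fold 1.01, interval 0.797 to 1.30), and Sema4c, a ligand of plexin B2, at 1.28 and 1.69 RPKM (fold 1.32, interval 0.876 to 2.06). Sema4g stayed under 1 RPKM, at 0.941 and 0.841 RPKM. The class summed to 10.8 RPKM in the control library and 8.40 RPKM in the mutant library, 1.29-fold lower.

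The abundant class 5 and class 6 ligands were lower in the mutant library by modest amounts. Sema5a, a membrane semaphorin with thrombospondin repeats, was at 16.5 RPKM (15.5 to 17.6) in the control library and 11.5 RPKM (11.1 to 11.8) in the mutant library, 1.44-fold lower (1.34 to 1.55). It rests on 960 and 4251 reads, the most of any member in each library, and on a log scale the interval of its fold is the narrowest of the family. In mm9, Sema5a spans chromosome 15, positions 32174568 to 32626096, and ends 2.60 Mb before the start of Osr2. The median log2 ratio was 0.00 over 35 genes tested within 5 Mb of Osr2. Of these 35 genes, 5 had an interval below 1, against 15.7% of all genes tested. Sema6a, a ligand of plexins A2 and A4, was at 15.3 RPKM (14.0 to 16.6) in the control library and 11.9 RPKM (11.4 to 12.3) in the mutant library, 1.28-fold lower (1.17 to 1.41). Sema6c was at 1.24 and 1.07 RPKM, with an interval of the fold from 0.524 to 1.49, and Sema5b and Sema6b stayed under 1 RPKM in both libraries.

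Sema6d, a ligand of plexin A1, had nearly equal totals in the 2 libraries but different rows. Its sum was 4.87 RPKM (4.16 to 5.66) in the control library and 5.03 RPKM (4.74 to 5.33) in the mutant library, a fold of 1.03 (0.878 to 1.22). The 5 rows differ by a 39-base extension, a 57-base exon and a 168-base exon, all in the coding sequence and all whole numbers of codons. The extension and the 57-base exon are printed in capitals because they carry the difference, from GENCODE M21 on GRCm38, plus strand.
Sema6d exon with the 39-base extension, chr2:124660244-124660344: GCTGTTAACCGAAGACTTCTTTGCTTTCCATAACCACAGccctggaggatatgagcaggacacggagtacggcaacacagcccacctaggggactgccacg
Sema6d 57-base exon, chr2:124660705-124660761: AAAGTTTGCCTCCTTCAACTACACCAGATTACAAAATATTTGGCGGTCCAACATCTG

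In the control library the row with the 168-base exon alone held 87.9% of Sema6d, at 4.28 RPKM, and the row with none of the 3 parts held 12.1%, at 0.587 RPKM. In the mutant the first of these was at 3.08 RPKM and the second was listed at nearly 0. A row with both the 57- and 168-base exons was at 1.02 RPKM there, and a row with the extension and the 57-base exon at 0.927 RPKM. Rows with the 57-base exon thus held nearly 0% of Sema6d in the control library and 38.7% in the mutant library, and rows with the extension nearly 0% and 18.4%. Coverage summed over the rows of the gene was 1.16 reads per base in the control library and 7.63 in the mutant library. Few control reads therefore cover a 57-base exon. Whether depth alone gives this difference was not tested. With only the highest row, the log2 ratio of Sema6d was -0.37, against 0.04 with rows summed.

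Sema7a, the lipid-anchored member, which signals through integrin beta 1 and also binds plexin C1, was the semaphorin with the largest higher fold. It was at 0.358 RPKM (0.131 to 0.780) in the control library and 1.08 RPKM (0.900 to 1.29) in the mutant library. The level was 3.03-fold higher in the mutant library, with a wide interval of 1.35 to 8.41, since the control value rests on about 6 reads. The genes for its receptors were at 0.449 and 0.697 RPKM for Plxnc1 and at 23.1 and 22.0 RPKM for Itgb1.

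**Figure D4:**
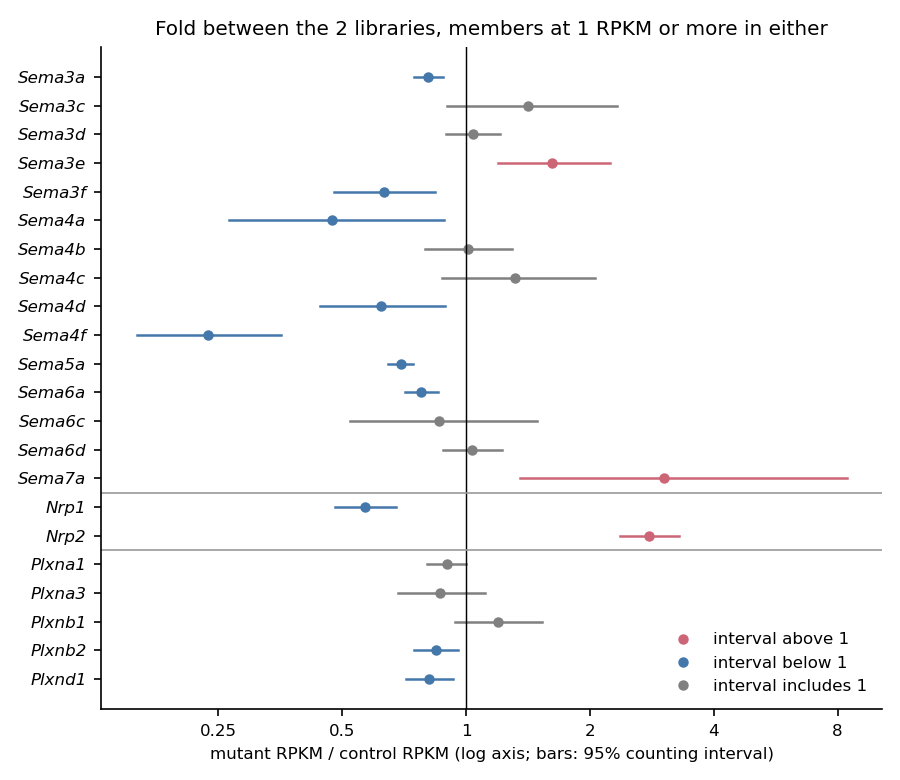
Plain ratio of mutant over control RPKM, on a log axis, for the 22 family genes at 1 RPKM or more in either library, with 95% counting intervals; red intervals lie above 1, blue below 1 and grey include 1. Nrp2, Sema7a and Sema3e are red, 10 genes are blue, and Sema4f at 0.236 and Nrp2 at 2.79 lie far out with intervals well clear of 1.

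None of the 5 plexins tested, the signalling receptors, reached 1.5-fold. Plxna1 was the most abundant A-type plexin, at 8.13 RPKM (7.35 to 8.98) in the control library and 7.29 RPKM (7.0 to 7.60) in the mutant library, a fold of 0.897 (0.805 to 1.0). Plxnb2, the most abundant B-type plexin, was at 8.70 RPKM (7.74 to 9.74) and 7.35 RPKM (6.99 to 7.71), 1.18-fold lower in the mutant library (1.04 to 1.34). Plxnd1, known from vessel patterning, was at 7.56 RPKM (6.70 to 8.50) and 6.15 RPKM (5.84 to 6.47), 1.23-fold lower (1.08 to 1.4). Of 10 tested markers of endothelium, in which Plxnd1 is known to be expressed, Emcn was at least 1.5-fold lower and none was higher. An interval below 1 was found for 2 of these markers, Emcn and Tie1, against 15.7% of all genes tested. The part of endothelial cells in the fold of Plxnd1 was not tested.

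Plxnb1 was at 1.69 and 2.02 RPKM (fold 1.19, interval 0.941 to 1.53). Plxna3 was at 2.19 and 1.90 RPKM (fold 0.866, interval 0.683 to 1.11); it is X-linked, and the median log2 ratio over 370 X-linked genes tested was -0.10. The other plexins stayed under 1 RPKM in both libraries. Of these, Plxna4, a co-receptor with Nrp1 for Sema3a in neurons, was at 0.134 RPKM on about 9 control reads and 0.506 RPKM in the mutant library, a fold of 3.78 (1.96 to 8.38). Plxna2 was at 0.524 and 0.685 RPKM, and Plxnb3 was listed at 0 in the control library and 0.00977 RPKM in the mutant library.

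Levels per transcript length were ranked within each library over the 31 genes. Sema3a, Sema5a and Sema6a held the first 3 places in the control library, where the intervals of Sema5a and Sema6a overlap. In the mutant Nrp2 took place 2, from place 9 in the control library, and Nrp1 went from place 8 to place 11. The longest move was that of Sema4f, from place 14 to place 26, and Sema4a (20 to 27) and Sema7a (26 to 19) moved as many places as Nrp2. Below the first 3 in the control library, Plxnb2, Plxna1 and Plxnd1 had intervals that overlap their neighbours, as did Sema3d, Nrp1 and Nrp2. Summed over the family, semaphorins were at 84.2 RPKM in the control library and 69.8 RPKM in the mutant library, plexins at 29.4 and 26.6 RPKM, and neuropilins at 10.6 and 17.3 RPKM. The neuropilins were the only one of these 3 groups with a higher sum in the mutant library, and Nrp2 supplied that difference. Of the 9 genes that did not reach 1 RPKM, the highest value was 0.941 RPKM for Sema4g, and 2 genes were listed at 0 in the control library.

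Partner genes of the pathway were described from a fixed list of 65 genes, of which 64 were found and 44 tested. In the mutant library 2 of these were higher by at least 1.5-fold and none was lower, against 2.55% and 3.57% of all genes tested. An interval above 1 was found for 4 and below 1 for 7, against 7.77% and 15.7% of all genes tested, and the median log2 ratio was -0.08. Among the other ligands of neuropilins, Figf, which encodes VEGF-D, was at 2.25 RPKM in the control library and 5.72 RPKM in the mutant library, 2.54-fold higher (1.67 to 4.06). Figf lies on chromosome X. The remaining VEGF genes were nearer to equal, with Vegfa at 4.14 and 3.8 RPKM, Vegfb at 12.8 and 11.1 RPKM, Vegfc at 2.76 and 2.90 RPKM and Pgf at 2.26 and 2.99 RPKM, and the fold of each had an interval that includes 1.

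Inside the cell, Mical2, of the family of enzymes that oxidise actin downstream of plexins, was at 0.867 and 1.84 RPKM, 2.12-fold higher in the mutant library (1.47 to 3.16). Of 20 effectors and GTPases tested, none reached 1.5-fold. An interval lay above 1 for 1 of them and below 1 for 5, against 7.77% and 15.7% of all genes tested. Those with an interval below 1 were the GTPases Rac1 (94.9 and 84.2 RPKM) and Cdc42 (67.3 and 55.3 RPKM), the kinase Fyn, Farp1, an exchange factor that binds plexins, and Arhgef11, an exchange factor that acts downstream of B-type plexins. Among the collapsin response mediators, which act in semaphorin signalling at the growth cone, Dpysl3 was at 9.41 and 7.02 RPKM, 1.34-fold lower (1.07 to 1.66), and Dpysl2 at 18.7 and 19.5 RPKM. Of 9 co-receptors tested, Robo1 had an interval below 1, at 16.5 and 12.7 RPKM, 1.30-fold lower (1.2 to 1.41). The intervals of the other 8, among them Erbb2, Kdr, Flt1 and Ptk7, include 1, and Met stayed under 1 RPKM. Of 4 proteases tested, none reached 1.5-fold. An interval lay above 1 for 1 of these proteases and below 1 for none, against 7.77% and 15.7% of all genes tested.

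**Figure D5:**
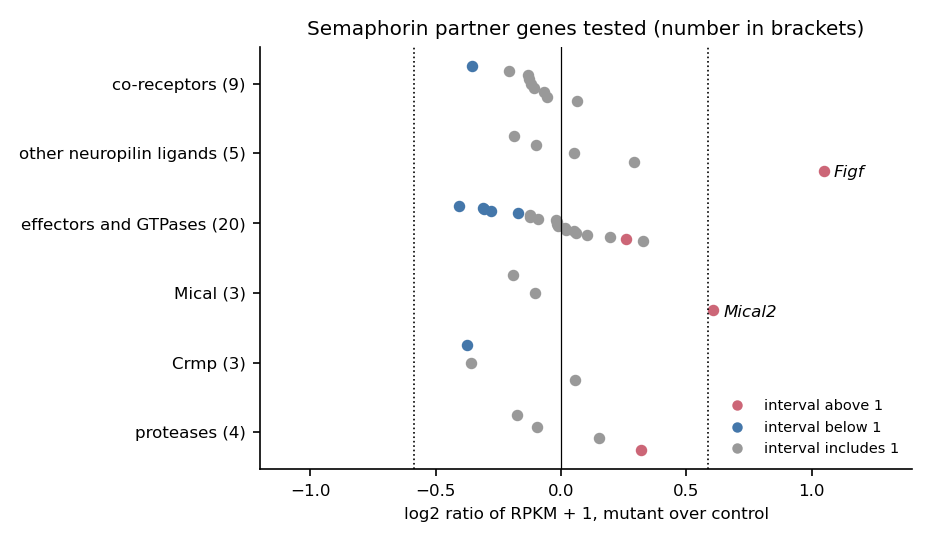
Log2 ratio of RPKM + 1, mutant over control, for the 44 partner genes tested, in rows by role; red points have a counting interval above 1, blue below 1, and grey include 1, and dotted lines mark 1.5-fold. Figf and Mical2 are the points beyond the upper line, and no point lies beyond the lower one.

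Cell types known to express Nrp2 include lymphatic endothelium and neurons. The 4 lymphatic markers summed to 5.74 RPKM in the control library and 4.37 RPKM in the mutant library, with Flt4 at 2.39 and 1.93 RPKM and Pdpn at 2.53 and 1.54 RPKM. Prox1 was at 0.470 and 0.588 RPKM and Lyve1 at 0.351 and 0.304 RPKM. Of 9 neuronal markers, 2 could be tested, and the list summed to 4.06 RPKM in the control library and 6.99 RPKM in the mutant library. Both tested markers, the neurofilament genes, had intervals above 1. Nefl was at 2.03 and 4.43 RPKM, 2.19-fold higher in the mutant library (1.42 to 3.54), and Nefm at 1.21 and 1.98 RPKM, 1.63-fold higher (1.04 to 2.69). Snap25, under 1 RPKM in both libraries, differed in the other direction, at 0.545 and 0.103 RPKM, 5.30-fold lower in the mutant library (1.47 to 18.4). Elavl4 was at 0.280 and 0.332 RPKM. Tubb3, Stmn2, Elavl3, Prph and Isl1 were listed at 0 in the control library, and in the mutant library Prph was at 0 and the highest of the others, Stmn2, at 0.0596 RPKM. Osteogenic markers moved in the same direction as Nrp2, with all 5 tested at least 1.5-fold higher and Spp1, Bglap and Ifitm5 listed at 0 in the control library. Epithelial markers had a log2 ratio above 0 for 11 of 12 tested, where the median of all genes tested was -0.05. Of these 12, 3 were at least 1.5-fold higher and none was lower, against 2.55% and 3.57% of all genes tested. Their interval lay above 1 for 6 and below 1 for none, against 7.77% and 15.7% of all. The part of lymphatic, neuronal, osteogenic and epithelial cells in the level of Nrp2 was not tested.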

How the data were processed

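Bowtie 0.12.7, TopHat 1.4.1 and mouse build mm9 are named, per the submitters' processing notes; no source used here gives the version of Cufflinks, which the files are named for. The authors deposited, per the file headers, an RPKM and an unscaled coverage for each of 28107 RefSeq transcript rows per library. The RPKM values were used as deposited. The 54 rows, none of the family, that either library marks as failed or high-data were left out, and the rest were summed per gene. Locus starts, which count from 0 in the files, are given from 1.

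Libraries were compared by the log2 ratio of RPKM + 1, over genes at 1 RPKM or more in at least 1 library; it understates differences of low genes. Folds with an interval are plain RPKM ratios. Approximate reads were coverage times length over 44.3 bases, the mean over libraries of the median product between 20 and 66 bases. They gave 95% Poisson intervals of levels and Clopper-Pearson intervals of folds, rescaled to hold the RPKM fold, with Python 3.11.15 and scipy 1.17.1. The fold intervals were checked on simulated Poisson reads, the model they assume, so that check covers neither repeated molecules nor the read step. Intervals cover counting error only, and not the spread between embryos. Reads of amplified cDNA that carry no molecular identifier can repeat a molecule, so the intervals can be too narrow. No count model was fitted. The rows' split between isoforms is an estimate of the authors' program.

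Every member at 1 RPKM or more was to be named, with partner genes past 1.5-fold (up to 4 per direction) and other neuropilin ligands. Members and lists were chosen with earlier results of these data known. Alternatives were other pseudocounts (0.1 and 5), filters (none and 5 RPKM), the highest row per gene, TPM scale, centring, failed rows kept and other read steps.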

Additional observations from a re-analysis of the deposited data

How the results depend on the processing

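Of the 22 members tested, 21 kept the sign of their log2 ratio under all 8 alternative settings that could be computed for them; Sema6d changed sign with the highest row per gene (-0.37). Against 2 members at least 1.5-fold higher and 2 lower, the TPM scale gave 5 and 5 of 29 members (12.1% and 11.6% of all genes tested so), a filter of 5 RPKM 1 and 1 of 10 (1.74% and 2.74%), a pseudocount of 5 RPKM 1 and 0 (0.45% and 0.57%), a pseudocount of 0.1 RPKM 3 and 5 (5.69% and 8.51%), and the highest row per gene 2 and 3 (2.78% and 5.25%). Nrp2 stayed at least 1.5-fold higher under all 8, with log2 ratios from 0.93 to 1.5. Nrp1 fell short of 1.5-fold with a pseudocount of 5 RPKM (-0.37), as did Sema4f (-0.36) and Sema7a (0.18). The median log2 ratio of the family was 0.012 without a filter on low values (31 genes), against -0.14. Of the partner genes, 1 was higher with a filter of 5 RPKM and 0 with a pseudocount of 5 RPKM, against 2, and 2 were lower on the TPM scale and 2 with the highest row, against 0. A read step 25% lower gave 14 members with an interval that excludes 1, against 13, and 25% higher gave 13. No paired analysis was possible because each genotype has 1 library. Leaving out a replicate could not be done for the same reason. The control depth limits genes near 1 RPKM, such as Sema7a with 6 control reads.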
